A study of Arabidopsis thaliana with 18 samples.

Results

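The transcriptome of atchz1ab hta9hta11 seedlings was set against that of hta9hta11 seedlings, so that the atchz1ab mutations were the labelled difference between lines that both carry mutations in HTA9 and HTA11. The comparison used 6 of the 18 libraries of the series, 3 for each line, and every gene that passed a filter on low counts, which left 18906 of the 33602 genes in the table. The atchz1ab hta9hta11 line carries atchz1ab together with the alleles hta9-1 and hta11-2, and the hta9hta11 line carries hta9-1 and hta11-2 alone, both in the Col-0 ecotype. For the same step without the histone mutations, 3 libraries of the atchz1ab line and 3 of wild-type Col-0 were used. All groups were whole seedlings of Arabidopsis thaliana, a small flowering plant of the mustard family, kept for 14 days on MS medium at 22 °C in cycles of 16 h light and 8 h dark. RNA from a plant column kit was made into stranded poly(A) mRNA libraries. The sources used here give neither the loci and alleles behind the name atchz1ab nor whether replicates were grown apart. The p-values below therefore rest on a spread between libraries that may be technical.

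H2A.Z is a histone variant that takes the place of H2A in nucleosomes, mostly next to gene starts and, in plants, over the bodies of genes that respond to the environment. The SWR1 complex exchanges it into chromatin, and chaperones hand it over as a dimer with H2B. Chz1 was first described in yeast as such a chaperone. In Arabidopsis, HTA8, HTA9 and HTA11 encode the H2A.Z proteins made in most tissues, and loss of H2A.Z deposition is known for early flowering and for altered expression of stress, immune and phosphate starvation genes.

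The 6 libraries compared held 10744318, 8865219 and 8674093 counts in atchz1ab hta9hta11 and 9336338, 7954113 and 9283676 counts in hta9hta11. Over these libraries and all genes tested, the first principal component held 31.9% of the variance and placed atchz1ab hta9hta11 at -17.8 to -13.8 and hta9hta11 at 14.3 to 19.6. No library stood on the wrong side of it. Levels are given below as CPM, counts per 1000000 of a library's size after TMM scaling, as mean ± SD with n = 3 or as the values of replicates 1, 2 and 3.

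The mutated genes came first as a check of the labels. HTA9 averaged 39.2 ± 2.73 CPM in atchz1ab hta9hta11 and 42.7 ± 1.68 CPM in hta9hta11, against 94.7 CPM in atchz1ab and 93.3 CPM in Col-0. HTA11 averaged 0.811 CPM in atchz1ab hta9hta11 and 0.832 CPM in hta9hta11, against 18.4 CPM in atchz1ab and 19.5 CPM in Col-0. Both lines compared thus had fewer counts of both H2A.Z genes than the lines without the histone mutations, and neither gene was called between them by edgeR (adjusted p = 0.505 for HTA9 and 0.971 for HTA11). The RefSeq annotation gives a CHZ domain, the domain of Chz1, to AT1G44780 and AT4G08310. AT4G08310 had 16, 16.5 and 16.9 CPM in atchz1ab hta9hta11, against 47, 44.4 and 44.7 CPM in hta9hta11, and fell by 1.47 on the log2 scale (SE 0.09, adjusted p = 2.21e-30). AT1G44780 averaged 12.4 ± 1.09 CPM in atchz1ab hta9hta11 and 12.5 ± 1.25 CPM in hta9hta11 and was not called (adjusted p = 0.991). Its neighbour AT1G44770, whose annotated end lies 135 bases away, had no count in any atchz1ab hta9hta11 library, against 35.9, 37.7 and 38 CPM in hta9hta11, which makes it at least 359.6-fold lower when 3 counts over the group are taken as the floor. AT1G44770 was also at 0 counts in the atchz1ab libraries and averaged 36.8 CPM in Col-0. A deleted or interrupted gene can still give counts outside the lesion, so the level of AT1G44780 does not check its label. HTA8, the remaining H2A.Z gene with counts, averaged 5.16 ± 1.01 CPM in atchz1ab hta9hta11 and 4.96 ± 0.226 CPM in hta9hta11 (adjusted p = 0.978), and HTA4 had no count in the lines compared. ARP6, a SWR1 subunit, averaged 26.4 ± 2.3 CPM in atchz1ab hta9hta11 and 27.5 ± 2.66 CPM in hta9hta11 (adjusted p = 0.891). Of 27 tested genes for H2A.Z, its exchange complexes and other histone chaperones, 0 were called higher and 0 lower by edgeR or by DESeq2, and 3 had an unadjusted p under 0.05.

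Adding atchz1ab to hta9hta11 changed few genes, and mostly by little. By edgeR's quasi-likelihood test at a Benjamini-Hochberg adjusted p under 0.05, 330 genes were called, 1.75% of those tested, with 150 higher (0.793%) and 180 lower (0.952%) in atchz1ab hta9hta11. The median size of the called changes was 0.38 on the log2 scale, and their median standard error was 0.08. A change of at least 2-fold was seen for 61 genes (0.323%), of which 35 were higher (0.185%) and 26 lower (0.138%). Of the genes tested, 3007 (15.9%) had groups that did not overlap in CPM, and 2002 had an unadjusted p under 0.05. The count of calls depended on the test and on single libraries: DESeq2 called 197 genes, and leaving out replicate 1 of atchz1ab hta9hta11 left 219. Seedling tissues were not separated, so fewer cells of a type and less RNA per cell cannot be told apart for any gene below.

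**Figure D1:**
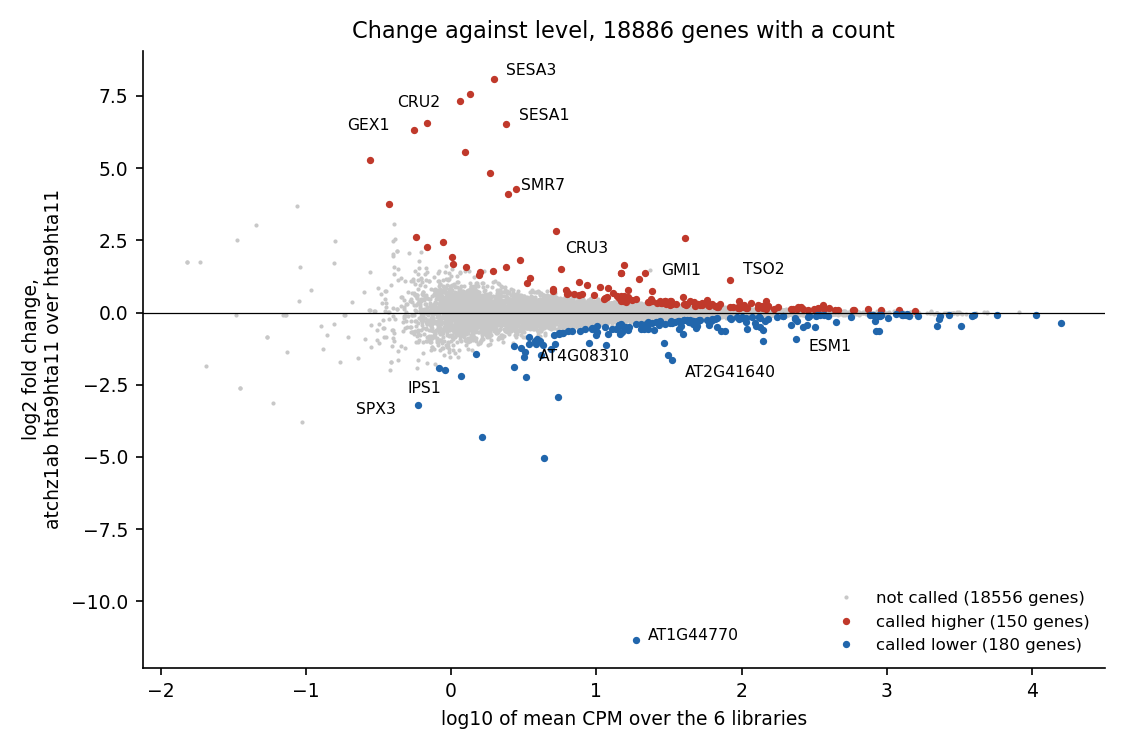
Each point is 1 of 18886 tested genes with a count in the 6 libraries, with log10 mean CPM on the horizontal axis and the log2 fold change of atchz1ab hta9hta11 over hta9hta11 on the vertical axis. The 150 genes called higher and 180 called lower are drawn apart from the rest. Fitted changes of genes with 0 counts in a group depend on the prior count.

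Several genes of the DNA damage response were higher in atchz1ab hta9hta11 than in hta9hta11. In plants the transcription factor SOG1, activated by the kinases ATM and ATR, raises cell cycle inhibitors, NAC factors and repair genes when DNA is broken or replication stalls. Of 43 tested members of a list of 44 such genes, 13 were called higher and 0 lower by edgeR, while 0.793% of all genes tested were called higher. This and the other gene lists were chosen with earlier results of these data known. Counts of their members called therefore describe these data and are not independent support. DESeq2 called 10 higher and 0 lower, and 1 member was lower at an unadjusted p under 0.05. The 13 comprised 2 of 7 sensors and SOG1 pathway genes, 3 of 8 cell cycle inhibitors and regulators, 6 of 25 repair genes and 2 of 3 genes of nucleotide supply. The median change of all 43 members was 0.04 on the log2 scale, against -0.000128 over all genes tested. SOG1, ATM, ATR, KU70 and KU80 were not called. Leaving out replicate 1 of hta9hta11 lowered the count to 8, with 10 to 12 in the other left-out fits. In the comparison of atchz1ab with Col-0, where 6.15% of genes were called higher and 5.55% lower, 13 members of this list were called higher and 3 lower.

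The promoters of 4 of the 13 called members hold the motif bound by SOG1, CTT and AAG with any 7 bases between them, in the 250 bases before the annotated gene start, which is 30.8% of them. Of the 30 tested members that were not called, 3 held it (10%), as did 8.77% of 18768 tested genes with a promoter in the RefSeq table (TAIR10.1). The motif is its own reverse complement, so both strands were read at once. Called members such as XRI1, GMI1 and TSO2, with larger changes than NAC044, did not hold it. The 4 promoters shown, of SMR7, SMR5, PARP2 and NAC044, are those of the called members that hold the motif. They lie at chr3:10231568-10231817 (minus strand), chr1:2305032-2305281 (minus strand), chr4:1049516-1049765 (plus strand) and chr3:228825-229074 (plus strand), and capitals mark the motif.
SMR7: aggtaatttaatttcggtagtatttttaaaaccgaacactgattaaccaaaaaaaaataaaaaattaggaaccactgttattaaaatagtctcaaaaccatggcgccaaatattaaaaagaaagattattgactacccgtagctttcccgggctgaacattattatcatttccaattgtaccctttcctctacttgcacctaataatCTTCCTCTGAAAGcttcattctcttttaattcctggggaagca
SMR5: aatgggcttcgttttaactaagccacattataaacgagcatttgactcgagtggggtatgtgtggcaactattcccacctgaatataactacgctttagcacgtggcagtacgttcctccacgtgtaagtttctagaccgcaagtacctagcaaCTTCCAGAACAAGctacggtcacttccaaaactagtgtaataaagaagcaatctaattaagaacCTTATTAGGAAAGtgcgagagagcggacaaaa
PARP2: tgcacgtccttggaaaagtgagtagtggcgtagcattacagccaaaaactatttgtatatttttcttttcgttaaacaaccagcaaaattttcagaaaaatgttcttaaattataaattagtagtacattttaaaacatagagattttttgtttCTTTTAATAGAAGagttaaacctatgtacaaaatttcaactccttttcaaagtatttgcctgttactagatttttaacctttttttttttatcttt
NAC044: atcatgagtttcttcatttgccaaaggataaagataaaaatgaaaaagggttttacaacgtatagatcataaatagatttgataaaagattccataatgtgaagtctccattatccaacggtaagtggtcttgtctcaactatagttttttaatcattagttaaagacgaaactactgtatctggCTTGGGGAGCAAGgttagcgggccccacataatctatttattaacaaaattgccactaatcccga
A match is a description of these letters and was not tested as a binding site.

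SMR7 and SMR5, at chr3:10230892-10231567 and chr1:2304766-2305031 of TAIR10.1, encode SIAMESE-related inhibitors of cyclin-dependent kinases that SOG1 activates. SMR7 had 5.26, 4.51 and 4.27 CPM in atchz1ab hta9hta11, against 0.211, 0.495 and 0.106 CPM in hta9hta11, a log2 fold change of 4.1 (SE 0.42, adjusted p = 2.91e-14). All 3 libraries of atchz1ab hta9hta11 were far above all 3 of hta9hta11. SMR5 had 5, 9 and 6 counts in atchz1ab hta9hta11, against 0, 1 and 0 counts in hta9hta11, a ratio of 18.6 after scaling with a 95% counting interval of 2.97 to 769.9 (adjusted p = 0.0239). Its groups did not overlap, but the gene is covered over 266 bases by a gene on the opposite strand, and the sources used here do not say whether counting used the strand. CYCB1;1, a mitotic cyclin that is also induced by DNA damage, had 8.26, 7.82 and 7.42 CPM in atchz1ab hta9hta11, against 3.7, 5.82 and 4.37 CPM in hta9hta11 (log2 fold change 0.78, adjusted p = 0.00507).

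The NAC factors NAC044 and NAC085 act below SOG1 in holding the cell cycle. NAC044 had 3.99, 3.96 and 5.62 CPM in atchz1ab hta9hta11, against 2.32, 1.11 and 2.98 CPM in hta9hta11 (log2 fold change 1.04, SE 0.27, adjusted p = 0.0145). NAC085 had 6, 5 and 5 counts in atchz1ab hta9hta11 and no count in hta9hta11, at least 4.95-fold higher by the same floor (adjusted p = 0.012). Both rested on few counts. The call of NAC044 was lost without replicate 3 of atchz1ab hta9hta11 or replicate 1 or 2 of hta9hta11 (adjusted p up to 0.255), and that of NAC085 without any 1 replicate of hta9hta11 (up to 0.0799). SMR5 lost its call without replicate 2 or 3 of atchz1ab hta9hta11 or replicate 1 or 3 of hta9hta11 (up to 0.156). CYCB1;1 lost it without replicate 1 of either line (up to 0.12).

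Among repair genes, PARP2 (AT4G02390), which encodes a poly(ADP-ribose) polymerase that marks broken DNA, had 22.8, 20.04 and 21.5 CPM in atchz1ab hta9hta11, against 7.82, 8.41 and 8.41 CPM in hta9hta11 (log2 fold change 1.39, SE 0.12, adjusted p = 2.42e-18). GMI1, induced by gamma irradiation and a protein of homologous recombination, had 31.3, 31.7 and 30.4 CPM in atchz1ab hta9hta11, against 12.8, 11 and 12 CPM in hta9hta11 (log2 fold change 1.38, SE 0.10, adjusted p = 6.45e-23). XRI1, an X-ray induced gene needed in meiosis and repair, had 22, 22 and 20.12 CPM in atchz1ab hta9hta11, against 8.13, 8.54 and 7.88 CPM in hta9hta11 (log2 fold change 1.39, SE 0.12, adjusted p = 1.88e-18). In each of these genes the lowest library of atchz1ab hta9hta11 was above every library of hta9hta11. BRCA1, which acts in recombination, had 17.42, 14.2 and 14.5 CPM in atchz1ab hta9hta11, against 8.45, 8.91 and 8.31 CPM in hta9hta11 (log2 fold change 0.86, adjusted p = 6.21e-07). PARP1 (AT2G31320) had 16.5, 17.2 and 16.4 CPM in atchz1ab hta9hta11, against 10.9, 12.6 and 12 CPM in hta9hta11 (log2 fold change 0.50, adjusted p = 0.00518, and 0.0839 without replicate 1 of hta9hta11). GEX1, listed here as a gene that DNA damage induces but known for nuclear fusion in gametes, had 17, 6 and 10 counts in atchz1ab hta9hta11 and none in hta9hta11, at least 10.2-fold higher (adjusted p = 3.53e-05).

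Of the genes that supply deoxynucleotides, TSO2, the small subunit of ribonucleotide reductase, had 115, 113 and 115 CPM in atchz1ab hta9hta11, against 56.9, 50.7 and 50.5 CPM in hta9hta11 (log2 fold change 1.12, SE 0.05, adjusted p = 4.5e-41). It had the smallest p of all genes called higher. RNR1, the large subunit, had 98, 84.9 and 95 CPM in atchz1ab hta9hta11, against 85.2, 84.8 and 76 CPM in hta9hta11 (log2 fold change 0.18, adjusted p = 0.04), and its groups overlapped, unlike those of the other 12 called members. RNR1 lost its call without replicate 1 or 3 of atchz1ab hta9hta11 or replicate 3 of hta9hta11 (adjusted p up to 0.431). TK1a, a thymidine kinase outside the list, had 28.1, 27.4 and 25.9 CPM in atchz1ab hta9hta11, against 12.3, 12.4 and 11.9 CPM in hta9hta11 (log2 fold change 1.16, adjusted p = 2.3e-17). CYCB1;1, BRCA1, PARP1, RNR1 and TK1a were named after their values were seen. Of 34 tested genes of DNA replication and the cell cycle, 0 were called in either direction by edgeR or DESeq2, where edgeR called 1.75% of all genes tested. An unadjusted p under 0.05 was seen for 4 of them and for 2002 of all 18906 genes. In atchz1ab over Col-0, 2 were called higher and 2 lower, where 11.7% of all genes were called. These counts do not set the list apart from all genes.

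**Figure D2:**
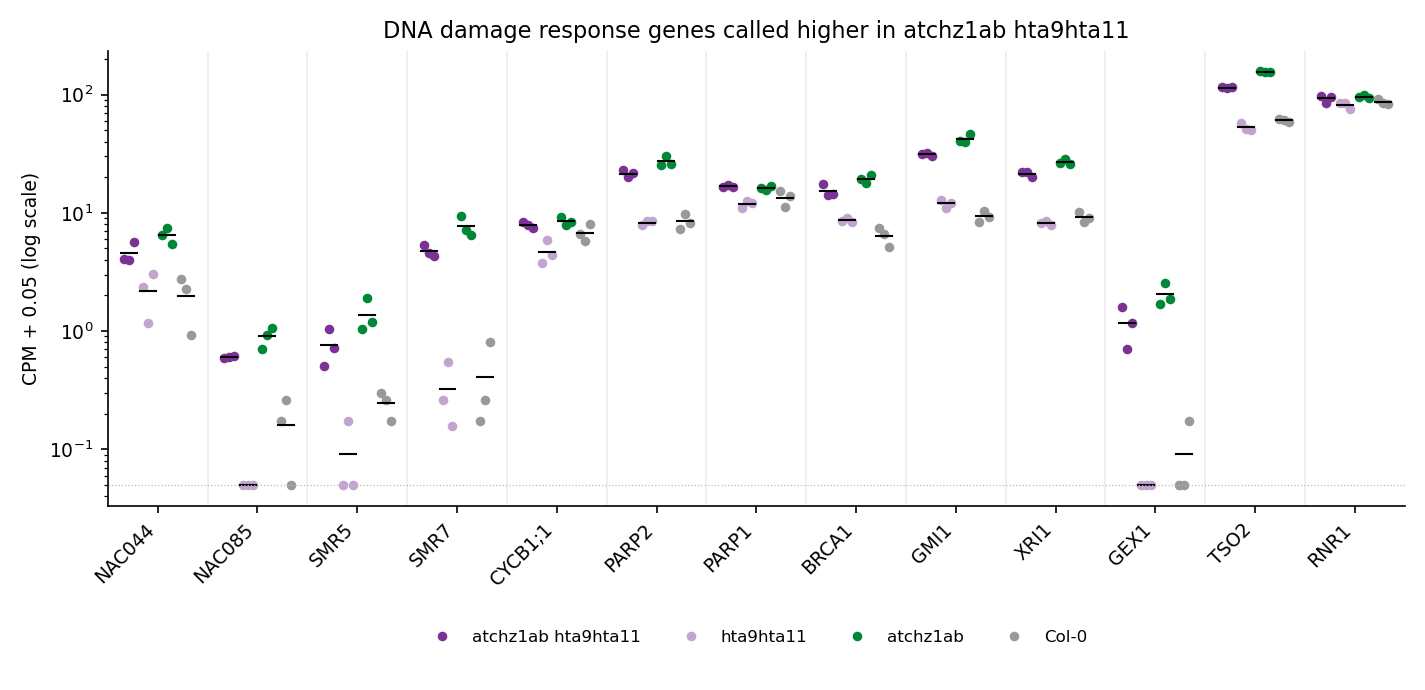
CPM plus 0.05 on a log scale for DNA damage response genes in each library of, from left, atchz1ab hta9hta11, hta9hta11, atchz1ab and Col-0, with points for libraries and lines for group means. SMR7 had 4.27 to 5.26 CPM in atchz1ab hta9hta11 and 0.106 to 0.495 CPM in hta9hta11, and TSO2 had 113 to 115 CPM in atchz1ab hta9hta11 and 50.5 to 56.9 CPM in hta9hta11.

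Seed storage protein genes were among the largest increases in atchz1ab hta9hta11. These genes encode the 2S albumins (SESA) and 12S globulins (cruciferins) that embryos lay down for germination, and they are normally shut off in seedlings. Of 14 tested members of a list of 21 seed genes, 7 were called higher and 0 lower by edgeR, against 0.793% of all genes tested, and the count was 7 in every fit with a library left out. DESeq2 called 6 higher and 0 lower, and 0 members were lower at an unadjusted p under 0.05. All 7 were among the 11 tested genes for storage proteins and oil bodies, and 0 of 3 tested seed regulators and LEA proteins were called. Among the 12 libraries used here, only those of atchz1ab hta9hta11 held enough counts of SESA1 to SESA4 and the globulin CRU2 for the filter. The share of tested members called higher is therefore partly set by the filter and cannot be read as a test of the list. PER1, EM6, M17, the oleosins OLEO1, OLEO2 and OLEO4, and PAP85 were not called, LEC1 had no count, and LEC2, FUS3 and ABI3 were below the filter. The summed level of the list, the seed markers of this sample, was 126 to 129 CPM in atchz1ab hta9hta11 and 74.1 to 78.6 CPM in hta9hta11, against 39.95 to 43.03 CPM in atchz1ab and 19.3 to 25.6 CPM in Col-0. The called genes are themselves seed markers, and the part of seed tissue in these samples in the result was not tested. The summed levels of 19 root markers were 418 to 430.3 CPM in atchz1ab hta9hta11 and 424 to 433 CPM in hta9hta11, which overlap. Those of 13 senescence and dark genes overlapped too, at 793 to 820 CPM in atchz1ab hta9hta11 and 790 to 800 CPM in hta9hta11. Without overlap, 46 photosynthesis genes summed to 99571 to 100310 CPM in atchz1ab hta9hta11 and 101044 to 102429 CPM in hta9hta11. Likewise 8 floral organ markers summed to 10.45 to 10.57 CPM in atchz1ab hta9hta11 and 10.76 to 12.99 CPM in hta9hta11.

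SESA1, SESA2, SESA3 and SESA4 lie side by side on chromosome 4 within 6955 bases. Their promoters are shown because the 4 neighbours rose together and because all hold CATGCA or its reverse complement TGCATG, the element bound by the seed B3 factors ABI3, FUS3 and LEC2. This motif was looked for after the values were seen, on both strands, and matches may overlap. Of the 7 called seed genes 6 held it in the 250 bases before the gene start (85.7%), as did 4 of the 7 that were tested and not called (57.1%) and 7.30% of 18768 tested genes. The RefSeq (TAIR10.1) promoters lie at chr4:13607079-13607328, chr4:13609091-13609340, chr4:13611546-13611795 and chr4:13613346-13613595, all on the plus strand, with 2, 3, 7 and 6 matches in that order, and capitals mark the motif.
SESA1: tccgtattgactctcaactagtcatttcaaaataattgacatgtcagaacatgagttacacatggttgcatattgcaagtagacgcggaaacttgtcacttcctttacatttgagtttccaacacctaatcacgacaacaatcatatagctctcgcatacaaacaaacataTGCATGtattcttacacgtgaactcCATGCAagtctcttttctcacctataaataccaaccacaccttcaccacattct
SESA2: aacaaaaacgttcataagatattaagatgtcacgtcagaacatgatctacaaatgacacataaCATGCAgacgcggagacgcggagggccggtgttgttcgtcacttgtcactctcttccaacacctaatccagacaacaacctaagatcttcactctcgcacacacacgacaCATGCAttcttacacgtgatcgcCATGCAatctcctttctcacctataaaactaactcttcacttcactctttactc
SESA3: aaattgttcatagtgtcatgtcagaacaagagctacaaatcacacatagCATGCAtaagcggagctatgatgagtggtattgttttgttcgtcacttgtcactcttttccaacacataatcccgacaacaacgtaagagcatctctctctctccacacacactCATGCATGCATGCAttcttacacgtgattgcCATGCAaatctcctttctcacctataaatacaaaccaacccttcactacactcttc
SESA4: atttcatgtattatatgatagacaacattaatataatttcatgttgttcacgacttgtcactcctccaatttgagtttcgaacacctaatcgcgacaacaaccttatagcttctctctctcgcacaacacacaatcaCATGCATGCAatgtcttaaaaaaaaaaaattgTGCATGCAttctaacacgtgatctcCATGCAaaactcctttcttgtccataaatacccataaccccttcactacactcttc
The letters describe the promoters and draw nothing about the factors.

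SESA1 had 46, 53 and 38 counts in atchz1ab hta9hta11, against 0, 1 and 0 counts in hta9hta11, a scaled ratio of 127 with a 95% counting interval of 22.5 to 5062 (adjusted p = 6.97e-15). SESA2 had 50, 51 and 52 counts in atchz1ab hta9hta11, against 6, 0 and 1 counts in hta9hta11 (log2 fold change 4.28, SE 0.46, adjusted p = 3.34e-13). Each library of atchz1ab hta9hta11 lay above every library of hta9hta11 for both genes. SESA3 had 44, 25 and 45 counts in atchz1ab hta9hta11 and none in hta9hta11, at least 35.3-fold higher by the floor of 3 counts (adjusted p = 3.34e-13). SESA4 had 36, 23 and 20 counts in atchz1ab hta9hta11 and none in hta9hta11, at least 24.5-fold higher (adjusted p = 6.36e-10). SESA5, a further 2S albumin below the filter, had 12 counts over the atchz1ab hta9hta11 libraries and none in hta9hta11. Floors and intervals cover counting error only.

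Among the globulins, CRU2 had 25, 28 and 14 counts in atchz1ab hta9hta11 and none in hta9hta11, at least 20.7-fold higher (adjusted p = 1.37e-08). CRU3 had 22.4, 25 and 22.5 CPM in atchz1ab hta9hta11, against 8.03, 7.18 and 7.24 CPM in hta9hta11 (log2 fold change 1.63, SE 0.14, adjusted p = 7.51e-19). CRA1, named after its values were seen, had 55.2, 49.3 and 53.5 CPM in atchz1ab hta9hta11, against 42.9, 41.3 and 37.8 CPM in hta9hta11 (log2 fold change 0.37, adjusted p = 0.000602). The groups of all 3 genes did not overlap. In the lines without the histone mutations, the same genes fell into different patterns. SESA1 to SESA4 and CRU2 had 0 to 1 count over the libraries of each of atchz1ab and Col-0, so that atchz1ab alone did not raise them detectably at this depth. CRU3 and CRA1 were higher in atchz1ab than in Col-0, with log2 fold changes of 2.83 and 0.86. The interaction, the change in the hta9hta11 background minus that in the wild-type background, was -1.19 for CRU3 and -0.48 for CRA1 (adjusted p = 0.0177 and 0.0152). For the albumins and CRU2 the interaction was not called, with adjusted p from 0.052 for SESA3 upward, at totals of 0 to 1 count in 2 of the groups it uses.

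**Figure D3:**
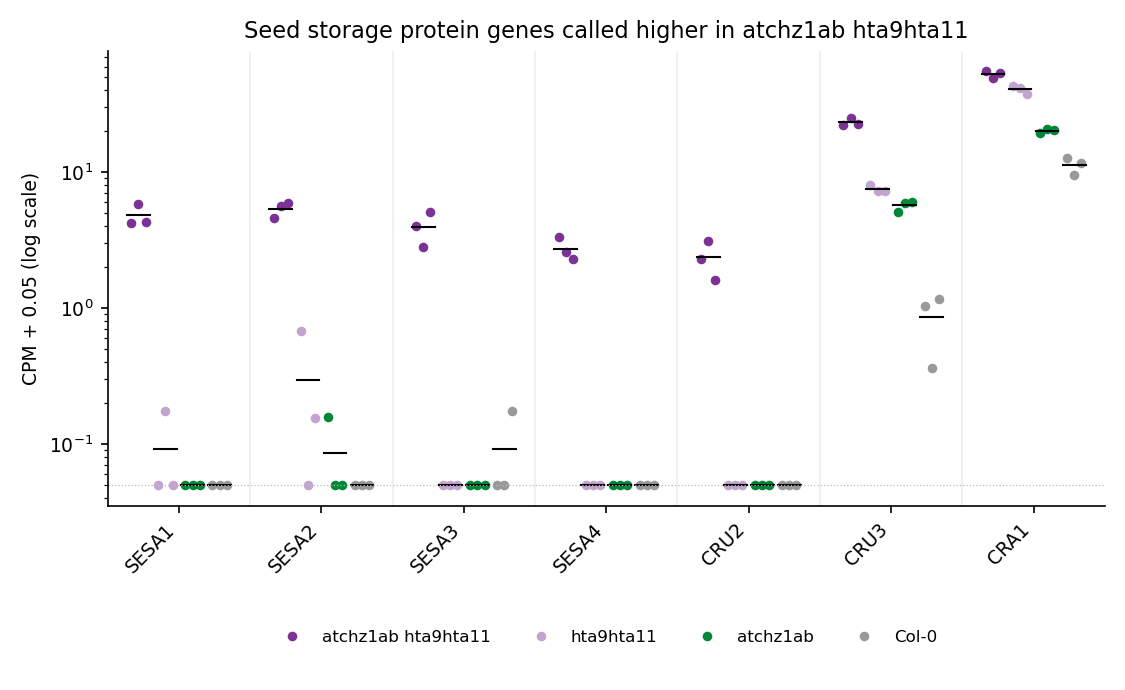
CPM plus 0.05 on a log scale for seed storage protein genes in each library of, from left, atchz1ab hta9hta11, hta9hta11, atchz1ab and Col-0, with points for libraries and lines for group means. SESA1, SESA3, SESA4 and CRU2 had counts in all 3 atchz1ab hta9hta11 libraries and at most 1 in any other library shown, while CRU3 and CRA1 had counts in all 12.

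Several genes that plants raise when phosphate is short were lower in atchz1ab hta9hta11. In this response the transcription factor PHR1 induces signalling RNAs, transporters, phosphatases and enzymes that replace phospholipids, and SPX proteins hold PHR1 back when phosphate is plentiful. Of 31 tested members of a list of 36, 0 were called higher and 6 lower by edgeR, against 0.952% of all genes tested called lower, and 1 was higher at an unadjusted p under 0.05. The median change of the 31 was -0.08 on the log2 scale. The 6 comprised 3 of 9 regulators, 0 of 6 transporters, 1 of 7 phosphatases and nucleases and 2 of 9 genes of membrane lipids. Without replicate 1 or replicate 3 of atchz1ab hta9hta11 the count was 3, and it was 4 without replicate 2 of atchz1ab hta9hta11 or replicate 3 of hta9hta11. DESeq2 called 3 lower and 0 higher. In atchz1ab against Col-0, where 6.15% of genes were called higher and 5.55% lower, 3 members of the list were called higher and 12 lower.

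PHR1 binds GNATATNC, which is its own reverse complement. Of the 6 called members 3 held it in the 250 bases before the gene start (50%), as did 5 of the 25 not called (20%) and 5.42% of 18768 tested genes. The 3 promoters, from RefSeq (TAIR10.1) at chr2:18606160-18606409 (plus strand) for SPX3, chr1:27466349-27466598 (minus strand) for PS2 and chr5:894332-894581 (plus strand) for AT4, are shown with the motif in capitals, because these are the called members whose change can be read beside it.
SPX3: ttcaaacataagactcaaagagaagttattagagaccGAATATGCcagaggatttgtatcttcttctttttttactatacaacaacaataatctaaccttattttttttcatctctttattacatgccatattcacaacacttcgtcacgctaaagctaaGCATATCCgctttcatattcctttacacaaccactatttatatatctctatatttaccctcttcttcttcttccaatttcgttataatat
PS2: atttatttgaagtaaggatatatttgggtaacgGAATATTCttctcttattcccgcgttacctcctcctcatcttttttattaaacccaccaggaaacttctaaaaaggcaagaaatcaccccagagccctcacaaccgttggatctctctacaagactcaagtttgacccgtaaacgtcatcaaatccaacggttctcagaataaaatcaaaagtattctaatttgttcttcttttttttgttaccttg
AT4: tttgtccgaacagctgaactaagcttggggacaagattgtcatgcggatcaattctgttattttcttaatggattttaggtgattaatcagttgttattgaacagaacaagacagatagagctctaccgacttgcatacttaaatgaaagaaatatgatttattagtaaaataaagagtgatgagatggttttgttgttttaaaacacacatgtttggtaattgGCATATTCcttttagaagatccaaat

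SPX3, a nuclear SPX protein, had 1, 2 and 0 counts in atchz1ab hta9hta11, against 8, 10 and 11 counts in hta9hta11, a scaled ratio of 10.4-fold lower with a 95% counting interval of 3.23 to 53.4 (adjusted p = 0.00443). IPS1, a non-coding RNA that sequesters miR399, had 7, 2 and 3 counts in atchz1ab hta9hta11, against 18, 20 and 14 counts in hta9hta11, and fell by 2.19 on the log2 scale (SE 0.49, adjusted p = 0.00185). Its relative AT4 had 10.2, 11.2 and 9.55 CPM in atchz1ab hta9hta11, against 14.4, 15.5 and 15.65 CPM in hta9hta11 (log2 fold change -0.55, adjusted p = 0.0038). The atchz1ab hta9hta11 libraries were all below those of hta9hta11 for these 3 RNAs. PS2, a phosphatase, had 3.81, 3.96 and 3.6 CPM in atchz1ab hta9hta11, against 6.87, 5.32 and 7.35 CPM in hta9hta11 (log2 fold change -0.79, adjusted p = 0.0239). MGD3, which makes the galactolipids that stand in for phospholipids, had 12, 21 and 14 counts in atchz1ab hta9hta11, against 49, 37 and 42 counts in hta9hta11 (log2 fold change -1.54, SE 0.28, adjusted p = 3.4e-05). SQD2, of sulfolipid synthesis, averaged 112 ± 1.88 CPM in atchz1ab hta9hta11 and 124 ± 3.49 CPM in hta9hta11 (log2 fold change -0.15, adjusted p = 0.0399), and PECP1 had a log2 fold change of -1.04 that was not called (adjusted p = 0.0503). Leaving out a library ended the call of SPX3 (replicate 1 or 3 of atchz1ab hta9hta11, adjusted p up to 0.0626), of PS2 (any but replicate 2 of hta9hta11, up to 0.185) and of SQD2 (any but replicate 1 of hta9hta11, up to 0.202). SQD2 and PECP1 were named after their values were seen. All 6 called members are also given here for atchz1ab over Col-0, where the log2 fold changes were -4.84 for SPX3, -3.84 for IPS1, -1.15 for AT4, -2.54 for PS2, -2.46 for MGD3 and -0.09 for SQD2. The drop was smaller in the hta9hta11 background by the interaction for PS2 (difference 1.75, adjusted p = 1.28e-05) and AT4 (difference 0.60, adjusted p = 0.035).

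Several transcripts of the chloroplast genome were lower in atchz1ab hta9hta11. Poly(A) capture takes organelle RNA, which is mostly not polyadenylated, only in part, so its share depends on how well mRNA was enriched as well as on its level. Organelle genes took 1.73% ± 0.0049 of counts in atchz1ab hta9hta11 and 2.1% ± 0.021 in hta9hta11, a difference of -0.372 percentage points with no overlap (exact two-sided permutation test, p = 0.1, the smallest that 3 against 3 allow). Chloroplast genes took 1.42% in atchz1ab hta9hta11 and 1.75% in hta9hta11, and mitochondrial genes 0.303% in atchz1ab hta9hta11 and 0.352% in hta9hta11. In the wild-type background, the organelle share stood at 1.60% of counts for atchz1ab and 2.13% for Col-0. Of 92 tested chloroplast genes, 1 was called higher and 35 lower by edgeR, with 0.952% of all genes tested called lower and a median change of -0.33 on the log2 scale. The lower count was 23 with DESeq2 and 17 with an assumed coefficient of variation of 0.1 between replicates. Of 28 tested mitochondrial genes 0 were called higher and 3 lower, with a median of -0.28, and DESeq2 called 0 higher and 2 lower. Of these 28, 0 were higher at an unadjusted p under 0.05. ATCG00490 had 2691, 2697 and 2705 CPM in atchz1ab hta9hta11, against 3782, 3721 and 3728 CPM in hta9hta11 (log2 fold change -0.47, SE 0.01, adjusted p = 8.44e-62), the smallest p of all genes. ATCG00340, ATCG00350 and ATCG00020 had log2 fold changes of -0.64, -0.63 and -0.47 (adjusted p = 4.96e-59, 2.01e-55 and 6.9e-57). The table used for names does not name these identifiers. AT3G41768, an 18S ribosomal RNA that mRNA enrichment also removes, had 13692, 13879 and 13808 CPM in atchz1ab hta9hta11, against 17860.1, 17495 and 18099.8 CPM in hta9hta11 (log2 fold change -0.37, adjusted p = 2.39e-60), and it has a copy of 99.9% identity over its whole length, so its counts are uncertain. The other 3 tested genes annotated as nuclear ribosomal RNA, named after their values were seen, also have such copies and did not move one way. AT2G01010 and AT2G01020 had log2 fold changes of -0.57 and -0.74 (adjusted p = 0.0199 and 1.86e-05). AT3G41979 had 102, 113 and 112 CPM in atchz1ab hta9hta11, against 79.8, 82.3 and 84 CPM in hta9hta11, and was higher (log2 fold change 0.40, adjusted p = 3.18e-11). AT2G01010 lost its call without replicate 1 or 2 of atchz1ab hta9hta11 or replicate 1 or 3 of hta9hta11 (adjusted p up to 0.266) and with DESeq2. The part of mRNA enrichment in the result was not tested.

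Called changes of nuclear photosynthesis genes were small. Of 46 tested, 1 was called higher and 8 lower by edgeR, against 0.793% higher and 0.952% lower of all genes, and all 9 calls were gone when the coefficient of variation between replicates was assumed to be 0.1 in place of the fitted 3.08%. Lower calls were made for 7 of 12 genes listed under Rubisco and the Calvin cycle. The 7 were the Rubisco small subunits RBCS1A, RBCS1B, RBCS2B and RBCS3B, the Rubisco activase RCA, and the carbonic anhydrases CA1 and CA2. The Calvin cycle enzymes PRK, GAPA, GAPB, SBPASE and CFBP1 were not called. Lower calls were also made for 0 of 17 antenna genes and 1 of 6 photorespiration genes. CA1, a chloroplast carbonic anhydrase, had 3681, 3703 and 3668 CPM in atchz1ab hta9hta11, against 3988, 3997 and 4028 CPM in hta9hta11 (log2 fold change -0.12, SE 0.01, adjusted p = 2.73e-13). RBCS2B, a small subunit of Rubisco, had 2559.9, 2595 and 2558 CPM in atchz1ab hta9hta11, against 2745, 2722 and 2798 CPM in hta9hta11 (log2 fold change -0.10, adjusted p = 8.88e-08). The groups of both genes did not overlap although the changes were small. CA2 and RBCS1B had log2 fold changes of -0.12 and -0.11 (adjusted p = 1.99e-08 and 4.31e-05). LHCB1.1, a light-harvesting protein of photosystem II, had 924, 946 and 935 CPM in atchz1ab hta9hta11, against 876, 866 and 889 CPM in hta9hta11 (log2 fold change 0.09, adjusted p = 0.000206), and it shares 96.1% of its sequence with a copy over 62.6% of the gene, so reads may be split between copies. The 12 genes listed under Rubisco and the Calvin cycle, carbonic anhydrases included, went the other way without the histone mutations. There 11 of 12 were called higher in atchz1ab than in Col-0, against 6.15% of all genes. The interaction was called lower for all 12, against 3.74% of all genes.

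The defence and stress lists were read against the shares of all genes called, which were 0.793% higher and 0.952% lower in the hta9hta11 background and 6.15% higher and 5.55% lower in the wild-type background. Of 29 tested genes of salicylic acid and immunity, 0 were called higher and 2 lower by edgeR, as by DESeq2, in the hta9hta11 background, where 1 was higher at an unadjusted p under 0.05, and 0 higher and 15 lower in the wild-type background. The 2 were ACD6, an ankyrin protein of cell death control, with 12.8, 11.4 and 11.6 CPM in atchz1ab hta9hta11, against 17.1, 16.3 and 16.1 CPM in hta9hta11 (log2 fold change -0.46, adjusted p = 0.00723), and RPP4, an immune receptor (log2 fold change -0.15, adjusted p = 0.00344). Without replicate 1 of hta9hta11 both calls were lost, as was that of ACD6 without replicate 2 of atchz1ab hta9hta11 (adjusted p up to 0.0663) and that of RPP4 without replicate 1 of atchz1ab hta9hta11 (up to 0.0899). Of the 8 tested outputs, 0 were called in the hta9hta11 background and 7 fell in the wild-type background, and the interaction was called higher for 7, against 3.41% of all genes. PR1, an antimicrobial output of salicylic acid, averaged 0.696 ± 0.4 CPM in atchz1ab hta9hta11 and 0.677 ± 0.49 CPM in hta9hta11, then 0.48 ± 0.0741 CPM in atchz1ab and 6.4 ± 1.24 CPM in Col-0 (interaction 3.67, adjusted p = 2.08e-05). PR2, a glucanase, averaged 6.05 ± 1.24 CPM in atchz1ab hta9hta11 and 4.58 ± 0.869 CPM in hta9hta11, then 2.55 ± 0.728 CPM in atchz1ab and 14.8 ± 2.9 CPM in Col-0 (interaction 2.96, adjusted p = 8.21e-16). In both genes the mean of hta9hta11 was below that of Col-0. PR1 and PR2 were named after their values were seen.

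Of 31 tested jasmonate and wounding genes, 3 were called higher and 2 lower in atchz1ab hta9hta11, where 1.75% of all genes were called, and 0 higher and 9 lower in atchz1ab over Col-0, where 11.7% were. LOX4, a lipoxygenase of jasmonate synthesis, had 7.53, 10.8 and 9.55 CPM in atchz1ab hta9hta11, against 6.02, 6.06 and 5.86 CPM in hta9hta11 (log2 fold change 0.62, adjusted p = 0.0296). JAZ9, a repressor of jasmonate signalling, and VSP2, a vegetative storage protein, had log2 fold changes of 0.29 and 0.23 (adjusted p = 0.0369 and 6.57e-06). The defensin PDF1.3 and CORI3, of the tyrosine transaminase family, had log2 fold changes of -0.98 and -0.23 (adjusted p = 0.00441 and 0.000498). LOX4 lost its call in 5 of 6 fits with a library left out, all but that without replicate 1 of atchz1ab hta9hta11 (adjusted p up to 0.264), and JAZ9 in all but that without replicate 2 of atchz1ab hta9hta11 (up to 0.213). PDF1.3 lost it without replicate 3 of either line (up to 0.11) and CORI3 without replicate 3 of hta9hta11 (0.0955).

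Glucosinolates are the mustard oil precursors of this family. Of 37 tested genes, 2 were called higher and 4 lower, against 0.793% higher and 0.952% lower of all genes. ESM1, which favours isothiocyanates over nitriles when glucosinolates are broken down, had 163, 167 and 164 CPM in atchz1ab hta9hta11, against 316, 306 and 308 CPM in hta9hta11 (log2 fold change -0.91, SE 0.03, adjusted p = 9.71e-52). This fall was larger than that in atchz1ab over Col-0, with an interaction of -0.41 (adjusted p = 8.72e-14). MAM3, which lengthens the side chain, had 3.36, 2.2 and 2.47 CPM in atchz1ab hta9hta11, against 4.54, 5.44 and 5.54 CPM in hta9hta11 (log2 fold change -0.92, adjusted p = 0.00543). CYP79B2, which begins the indolic branch, and TGG1, a myrosinase, had log2 fold changes of -0.29 and -0.13 (adjusted p = 0.0208 and 1.63e-12). NSP1, a nitrile specifier that acts opposite to ESM1 in breakdown, and the transporter GTR1 had log2 fold changes of 0.22 and 0.20 (adjusted p = 0.000172 and 0.034). Leaving out a library ended the call of MAM3 (replicate 2 of atchz1ab hta9hta11 or 3 of hta9hta11, adjusted p up to 0.0759), of CYP79B2 (any but replicate 3 of atchz1ab hta9hta11, up to 0.226) and of GTR1 (replicate 2 of atchz1ab hta9hta11 or 1 or 2 of hta9hta11, up to 0.398).

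Of 36 tested genes of abscisic acid, drought and cold, 1 was called higher and 3 lower, where 1.75% of all genes were called, and 1 higher and 21 lower in atchz1ab over Col-0, where 11.7% were. RAB18, a dehydrin, had 112, 103 and 100.5 CPM in atchz1ab hta9hta11, against 147, 144 and 144 CPM in hta9hta11 (log2 fold change -0.46, adjusted p = 1.8e-17). COR15B and COR15A, which protect chloroplast membranes in the cold, had log2 fold changes of -0.29 and -0.18 (adjusted p = 4.99e-09 and 0.00814), and the dehydrin ERD14 one of 0.20 (adjusted p = 2.47e-07). COR15A lost its call without replicate 3 of either line (adjusted p up to 0.11). Heat shock genes gave 0 calls in either direction among 30 tested, with 3 higher and 7 lower in atchz1ab over Col-0. The small heat shock proteins HSP17.6C and HSP17.4, named after their values were seen, averaged 0.708 and 1.19 CPM in atchz1ab hta9hta11, against 0.147 and 0.63 CPM in hta9hta11 (adjusted p = 0.157 and 0.552), and the interaction was called for both (6.36 and 4.52, adjusted p = 5.84e-08 and 8.15e-06). The 15 tested genes of fast stress responses, 23 of the circadian clock, 23 of auxin and growth, 7 root markers and 5 floral organ markers also gave 0 calls by edgeR in the hta9hta11 background, and DESeq2 gave 0 calls for these and for heat shock genes. At an unadjusted p under 0.05, reached by 2002 of all 18906 genes, there were 4 heat shock genes, all higher, and 7 of the clock, 1 higher and 6 lower. Fast stress responses had 4 (3 higher, 1 lower), auxin and growth 3 (2 higher, 1 lower), and root and floral organ markers 0. The log2 fold change was above 0 for 24 of 30 heat shock genes, against 9426 of all genes. These held all 10 tested small heat shock proteins (median 0.47).

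In the lists that follow, the shares of all genes called were 0.793% higher and 0.952% lower in the hta9hta11 background, and 6.15% and 5.55% in the wild-type background. Of 17 tested iron genes, 0 were called higher and 1 lower by edgeR and by DESeq2, with 1 higher at an unadjusted p under 0.05, against 11 higher and 2 lower in atchz1ab over Col-0. BHLH38, a transcription factor that raises iron uptake, had 1.91, 1.98 and 1.46 CPM in atchz1ab hta9hta11, against 3.38, 5.57 and 3.83 CPM in hta9hta11 (log2 fold change -1.22, SE 0.24, adjusted p = 0.000164). The step differed between backgrounds for BHLH38, with an interaction of -1.34 (adjusted p = 0.000208). Flowering genes gave 1 call higher and 2 lower among 26. MAF5, a relative of the floral repressor FLC, had 3.18, 2.97 and 2.47 CPM in atchz1ab hta9hta11, against 9.4, 5.07 and 6.07 CPM in hta9hta11 (log2 fold change -1.25, adjusted p = 0.000153). The repressor TEM1 and the floral integrator SOC1 had log2 fold changes of -0.42 and 0.19 (adjusted p = 0.00518 and 0.00449). Without replicate 1 of hta9hta11 MAF5 and SOC1 lost their calls (adjusted p = 0.0655 and 0.144), and TEM1 lost its call without replicate 3 of atchz1ab hta9hta11 or replicate 2 of hta9hta11 (up to 0.119). Nitrogen genes gave 2 calls higher and 2 lower among 19. ASN1, an asparagine synthetase that rises in the dark, had 50.4, 51.4 and 55.4 CPM in atchz1ab hta9hta11, against 71.5, 57.8 and 69 CPM in hta9hta11 (log2 fold change -0.34, adjusted p = 0.000422), while its change in atchz1ab over Col-0 was 0.66 (adjusted p = 1.26e-11). ASN2, the nitrate reductase NIA2 and the BTB protein BT2 had log2 fold changes of 0.14, 0.10 and -0.11 (adjusted p = 0.00218, 1.52e-05 and 0.0457), and BT2 lost its call without replicate 1 or 3 of atchz1ab hta9hta11 or replicate 2 or 3 of hta9hta11 (up to 0.303). Among 12 senescence and dark genes, BCB and SAG21 were the 2 called, both higher, with log2 fold changes of 0.57 and 0.27 (adjusted p = 0.00185 and 0.00927). Both lost the call without replicate 1 of hta9hta11, and SAG21 also without replicate 1 of atchz1ab hta9hta11 (adjusted p up to 0.0879 for BCB and 0.0668 for SAG21). Among 18 flavonoid genes the single call was UF3GT, a glucosyltransferase, with a log2 fold change of -1.99 (adjusted p = 0.04), lost without replicate 1 or 3 of atchz1ab hta9hta11 or replicate 2 of hta9hta11 (up to 0.413) and with DESeq2.

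**Figure D4:**
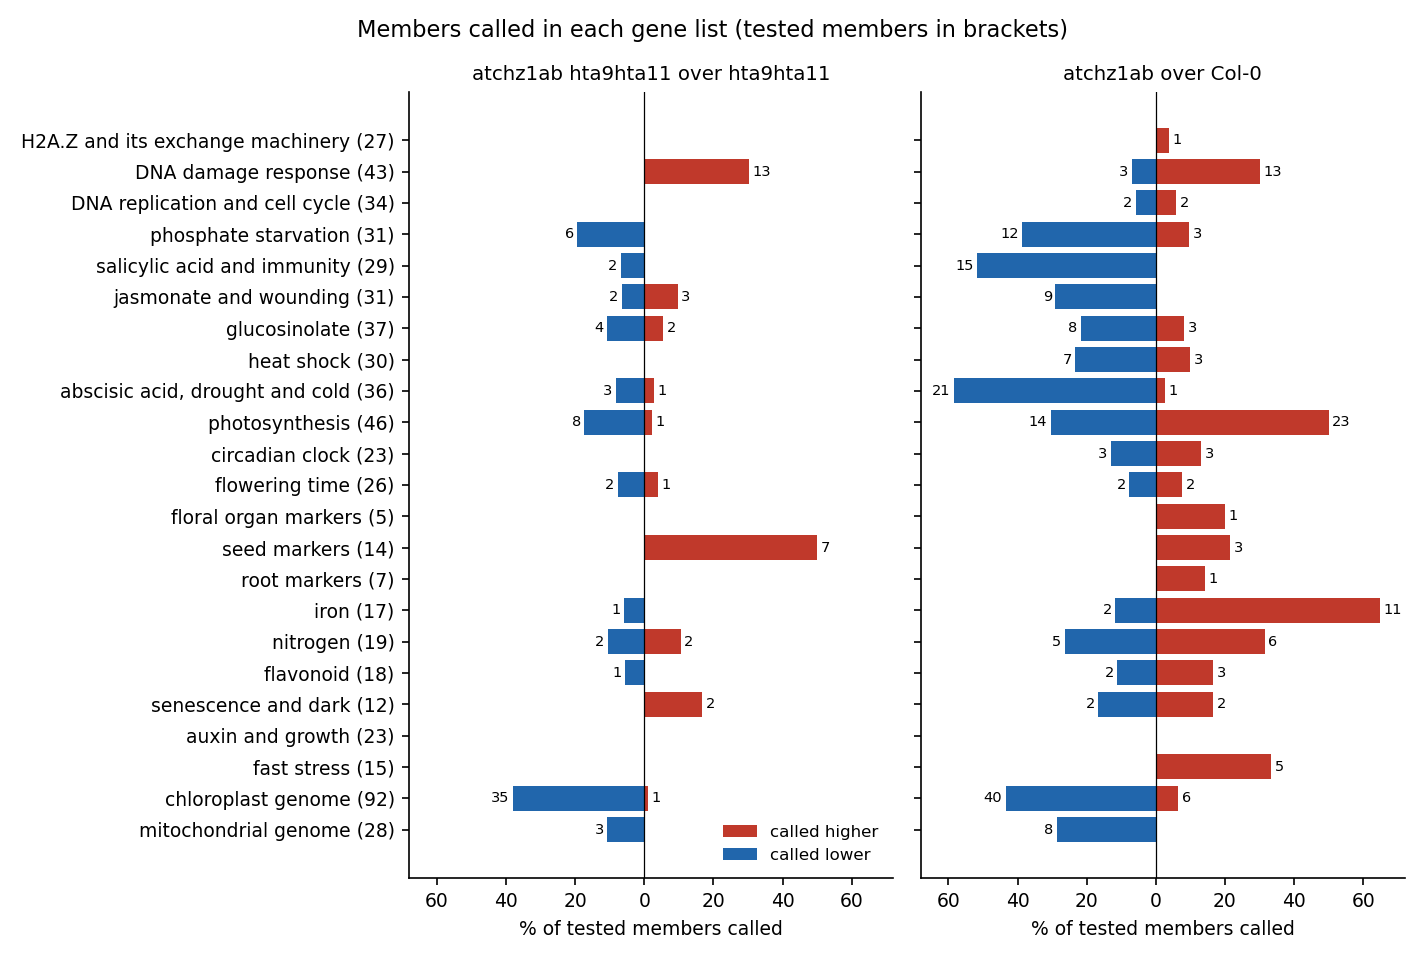
The percentage of tested members of each gene list called higher or lower, with the counts as numbers, for atchz1ab hta9hta11 over hta9hta11 on the left and atchz1ab over Col-0 on the right. On the left, 7 of 14 seed markers and 13 of 43 DNA damage genes were called higher and 35 of 92 chloroplast genome genes lower, where 330 of 18906 genes were called in all. The lists were chosen with earlier results of these data known. The share of seed markers called higher is also partly set by the filter on low counts and is not a test of the list.

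Outside the lists, several genes were nearly silent in hta9hta11 and had counts in every atchz1ab hta9hta11 library. AT5G07610, which encodes an F-box protein, had 18, 20 and 31 counts in atchz1ab hta9hta11, against 0, 0 and 1 counts in hta9hta11, a scaled ratio of 64.1 with a 95% counting interval of 11.1 to 2568 (adjusted p = 3.21e-09). AT4G22960, a gene of the FAM63A-like family, had 36, 32 and 36 counts in atchz1ab hta9hta11, against 0, 1 and 2 counts in hta9hta11, a ratio of 32.2 with an interval of 10.7 to 159 (adjusted p = 2.88e-13). AT1G20750, annotated as a RAD3-like helicase, had 11, 17 and 11 counts in atchz1ab hta9hta11 and none in hta9hta11, at least 12.1-fold higher (adjusted p = 7.29e-06). These 3 genes also rose in atchz1ab over Col-0, with adjusted p of 6.72e-11, 6.99e-15 and 1.1e-06, and none had a called interaction. AT5G60250, annotated as a RING finger protein, had 9.07, 10.7 and 7.98 CPM in atchz1ab hta9hta11, against 0.845, 1.36 and 1.7 CPM in hta9hta11 (log2 fold change 2.82, SE 0.23, adjusted p = 9.89e-20), and 629 of its bases overlap a gene on the opposite strand. NAC103, a transcription factor of the NAC family, had 4.99, 4.29 and 4.61 CPM in atchz1ab hta9hta11, against 1.27, 1.11 and 1.49 CPM in hta9hta11 (log2 fold change 1.83, SE 0.29, adjusted p = 9.25e-07). BGLU18, a beta-glucosidase that releases abscisic acid from its glucose ester, had 170.2, 170.0 and 159 CPM in atchz1ab hta9hta11, against 126, 128 and 128 CPM in hta9hta11 (log2 fold change 0.39, adjusted p = 2.91e-20). ATHAL3B, a flavoprotein, and AT2G05580, a glycine-rich protein, had log2 fold changes of 1.69 and 1.92 (adjusted p = 0.0498 and 0.0296), and both lost the call whichever of the 6 libraries was left out, with adjusted p up to 0.212 and 0.227.

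Among genes that fell, LTP4, a lipid transfer protein, had 1.09, 0.991 and 1.35 CPM in atchz1ab hta9hta11, against 6.44, 5.32 and 4.37 CPM in hta9hta11 (log2 fold change -2.23, SE 0.28, adjusted p = 7.26e-10). AT2G41640, a glycosyltransferase of family 61, had 17, 15.3 and 15.4 CPM in atchz1ab hta9hta11, against 52.1, 50.5 and 48.6 CPM in hta9hta11 (log2 fold change -1.66, SE 0.09, adjusted p = 3.91e-32). In the wild-type background AT2G41640 went the other way, with 18.7 ± 2.76 CPM in atchz1ab and 13.9 ± 2.19 CPM in Col-0 (log2 fold change 0.43, adjusted p = 0.00389), and 1144 of its bases overlap another gene on the same strand, so its counts are uncertain. AT5G37990, annotated as a methyltransferase, had 2.54, 2.31 and 1.69 CPM in atchz1ab hta9hta11, against 4.97, 7.05 and 6.5 CPM in hta9hta11 (log2 fold change -1.47, adjusted p = 1.44e-06). FACT, an acyltransferase that makes caffeate esters, had 0.816, 1.65 and 3.04 CPM in atchz1ab hta9hta11, against 3.8, 5.32 and 4.79 CPM in hta9hta11 (log2 fold change -1.37, adjusted p = 0.00072, and 0.106 without replicate 1 of atchz1ab hta9hta11). AT5G35480, with no annotated function, had a log2 fold change of -1.45 (adjusted p = 0.0241), and lost its call without replicate 1 or 3 of atchz1ab hta9hta11 or replicate 3 of hta9hta11 (up to 0.264). SAE1B, a subunit of the SUMO-activating enzyme, had 4, 2 and 1 counts in atchz1ab hta9hta11, against 7, 88 and 129 counts in hta9hta11 (log2 fold change -5.04, adjusted p = 3.97e-13). The hta9hta11 libraries differed widely from each other, and SAE1B and the neighbouring AT5G50565 (log2 fold change -4.31, adjusted p = 2.82e-06, and 0.113 without replicate 2 of hta9hta11) have copies of 100% identity over their whole length, so that reads can be split between copies and both values are uncertain. UGT72E3, AT3G29300 and AT4G00960 had no count in atchz1ab hta9hta11 and 8, 8 and 8 counts over the hta9hta11 libraries, too few to be tested.

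The effect of atchz1ab was then compared between the hta9hta11 and wild-type backgrounds, which share no library here. In atchz1ab against Col-0, 2211 genes were called (11.7%), 1162 higher and 1049 lower, with a median size of 0.30 on the log2 scale. A change of at least 2-fold was seen there for 283 genes (1.5%), 83 higher (0.439%) and 200 lower (1.06%). Of the 330 genes called in the hta9hta11 background, 139 were called in the same direction in the wild-type background (42.1% of 330 and 6.29% of 2211), with 46 higher and 93 lower in both. A further 59 were called in opposite directions, 37 higher and 22 lower in the hta9hta11 background, and 132 were called in the hta9hta11 background alone. A further 2013 genes were called in the wild-type background alone. The difference itself was tested by the interaction, the log2 fold change in the hta9hta11 background minus that in the wild-type background, which was called for 1352 genes (7.15%), 645 positive (3.41%) and 707 negative (3.74%). It was at least 1 on the log2 scale, a 2-fold difference, for 193 of them (1.02%), 145 positive (0.767%) and 48 negative (0.254%). It was called for 145 of the 330 genes and for 1124 of the 2211 genes, and 175 genes had a called interaction with no call in either background. Of the genes called in 1 background alone, it was called for 53 of the 132 and 1032 of the 2013. A call in 1 background alone is therefore not by itself a difference between backgrounds.

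Among the genes called in opposite directions, named after their values were seen, JRG21, a jasmonate-regulated oxygenase, averaged 13.7 ± 1.86 CPM in atchz1ab hta9hta11 and 7.38 ± 1.22 CPM in hta9hta11, then 5.98 ± 0.623 CPM in atchz1ab and 25.6 ± 1.75 CPM in Col-0. Its interaction was 3.0 (SE 0.21, adjusted p = 1.56e-25). ELI3-2, of the cinnamyl alcohol dehydrogenase family, averaged 27.6 ± 2.56 CPM in atchz1ab hta9hta11 and 20.09 ± 1.91 CPM in hta9hta11, then 10.1 ± 0.423 CPM in atchz1ab and 36.8 ± 2.93 CPM in Col-0 (interaction 2.32, adjusted p = 5.66e-27). UGT74F2, a glucosyltransferase of salicylic acid, averaged 163 ± 4.3 CPM in atchz1ab hta9hta11 and 140.1 ± 3.53 CPM in hta9hta11, then 104 ± 0.515 CPM in atchz1ab and 175 ± 4.25 CPM in Col-0 (interaction 0.97, adjusted p = 4.55e-29). The call of ELI3-2 in the hta9hta11 background was lost without replicate 2 of either line (adjusted p up to 0.0535). In these 3 genes the mean of hta9hta11 was below that of Col-0, and that of atchz1ab hta9hta11 lay between them.

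Among the 8 genes with the smallest interaction p, LHCB1.1 averaged 635 ± 6.88 CPM in atchz1ab and 1159.8 ± 14.7 CPM in Col-0, and its interaction was 0.96 (adjusted p = 2.28e-64). CRT3, a calreticulin that folds immune receptors in the endoplasmic reticulum, averaged 51.9 ± 1.04 CPM in atchz1ab hta9hta11 and 51.5 ± 2.36 CPM in hta9hta11, then 9.3 ± 2.34 CPM in atchz1ab and 54.6 ± 2.27 CPM in Col-0 (interaction 2.57, adjusted p = 2.55e-40). GLDP1, of the glycine decarboxylase of photorespiration, averaged 3254 ± 15.6 CPM in atchz1ab hta9hta11 and 3351 ± 56.1 CPM in hta9hta11, then 3873 ± 21.3 CPM in atchz1ab and 2633 ± 6.62 CPM in Col-0 (interaction -0.60, adjusted p = 2.1e-56). For CRT3 and GLDP1 the step was called in the wild-type background and not in the hta9hta11 background. GLT1, a glutamate synthase, GRP3S, a glycine-rich protein, and LHCB1.3 had interactions of 0.58, 0.80 and 0.35 (adjusted p = 7.61e-40, 7.61e-40 and 1.62e-39), and CA1 and RBCS2B had interactions of -0.49 and -0.51 (adjusted p = 5.32e-49 and 1.97e-45). Like LHCB1.1, LHCB1.3 has a near copy, of 96.05% identity over 67.64% of the gene, so reads may be split between copies. Of the 43 tested DNA damage genes, 3 had a called interaction, where 7.15% of all genes tested had one, so the count does not set this list apart. The 3 were BRCA1 (-0.74, adjusted p = 0.00591), GMI1 (-0.80, adjusted p = 3.87e-05) and TSO2 (-0.25, adjusted p = 0.0148), which rose in both backgrounds and by less in the hta9hta11 background.

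**Figure D5:**
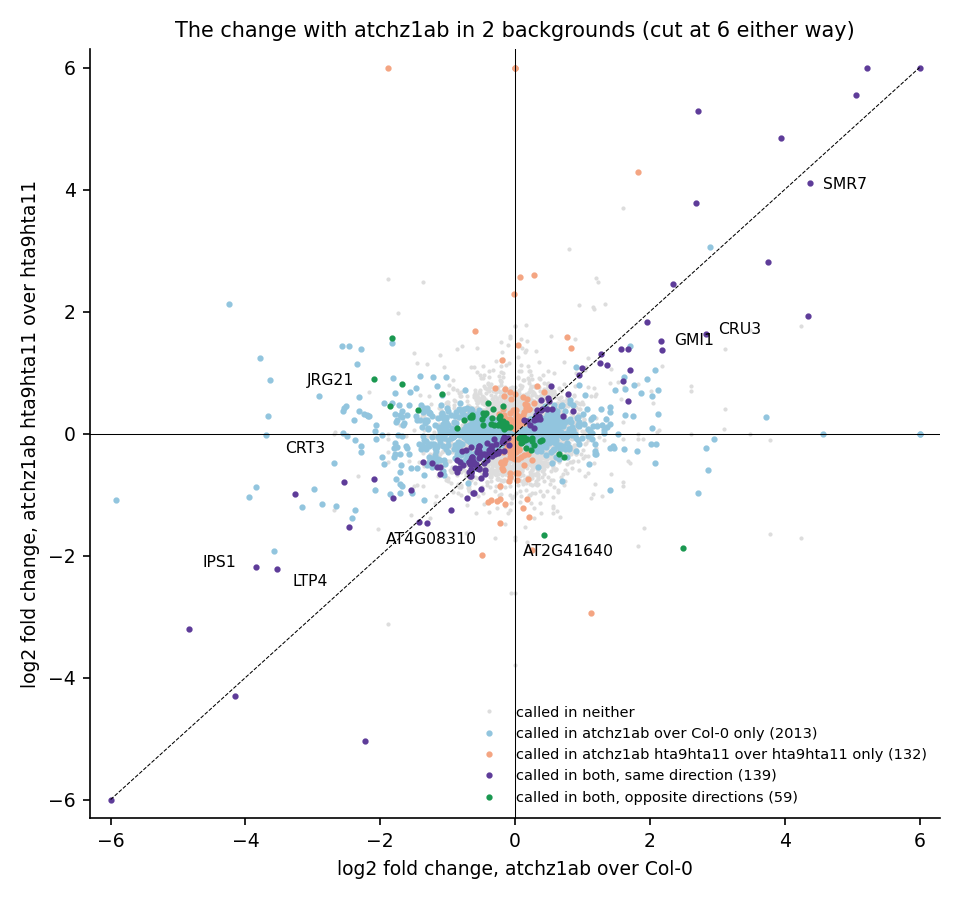
Each point is a tested gene, with the log2 fold change of atchz1ab over Col-0 on the horizontal axis and that of atchz1ab hta9hta11 over hta9hta11 on the vertical axis, both limited to 6 either way (9 genes lie past the limit). Genes called in neither background are drawn in light grey. The 139 genes called in both backgrounds in the same direction, the 59 called in opposite directions, the 132 called in the hta9hta11 background alone and the 2013 called in the wild-type background alone are drawn apart.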

How the data were processed

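RNA from whole seedlings of 6 genotypes was sequenced in 18 libraries, 3 per genotype, and 12 libraries of 4 genotypes bear on the comparisons given above. The authors deposited 1 table of raw counts per gene and library, with whole numbers that were not normalized. Per the submitters' processing notes, the tools were cutadapt, HISAT2, SAMtools and featureCounts with build TAIR10, with versions and settings, strand included, not given in the sources used here. Symbols, promoters and coordinates came from RefSeq (TAIR10.1), which matched 32835 of 33602 identifiers, and 8244 genes had no count.

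All 18 libraries entered 1 edgeR 4.0.16 quasi-likelihood fit (R 4.3.3) with genotype as the factor, 12 residual degrees of freedom, TMM scaling and the default filter on low counts, which kept 18906 genes with 99.9% of all counts. Genes were called where the p, adjusted by Benjamini-Hochberg over these genes, was under 0.05. The common coefficient of variation was 3.08%. Replicate pairs of all genotypes differed by more than sampling noise (chi-square per degree of freedom 1.43 to 1.66), so none was counted as a copy. Totals ran from 7163359 to 10744318 counts per library.

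The rule for named genes took the mutated genes, the 12 largest changes each way among called genes with a mean of at least 1 CPM and groups that do not overlap, the 6 smallest p each way, up to 4 called members each way of each list, the 8 smallest interaction p, genes with 0 counts in 1 group, and genes whose promoter is printed. The 21 lists hold 592 genes, 523 of them tested. The members and lists were chosen with earlier results of these data known. Of 291 called nuclear genes, 11 had a copy of at least 95% identity over at least 50% of the gene. Alternatives were DESeq2 1.42.0, RLE scaling, other filters, the compared groups alone, an assumed spread, a replicate block and each replicate left out.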

Additional observations from a re-analysis of the deposited data

Results flagged for a closer look

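Each gene here responded differently to atchz1ab in the hta9hta11 and wild-type backgrounds by edgeR's interaction test, given as the log2 fold change of atchz1ab hta9hta11 over hta9hta11 minus that of atchz1ab over Col-0. The interaction was called for 1352 genes. Groups of 3 libraries are too small for a test of single libraries that stand apart.

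Among genes outside the lists, the interaction was 2.28 for ATHAL3B, -2.09 for AT2G41640, -1.24 for AT5G37990, -1.58 for FACT and 0.42 for BGLU18. Of the genes chosen for the smallest interaction p, it was 0.96 for LHCB1.1, -0.60 for GLDP1, 2.57 for CRT3, 0.80 for GRP3S, 0.58 for GLT1, 0.35 for LHCB1.3, -0.49 for CA1 and -0.51 for RBCS2B. CA2 and RBCS1B, also of carbon fixation, had -0.36 and -0.26. The chloroplast genes ATCG00490 and ATCG00020 had 0.22 and 0.21, with falls in both backgrounds.

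TSO2 and GMI1 of the DNA damage list had -0.25 and -0.80, and the seed globulin CRU3 had -1.19, with rises in both backgrounds. Phosphate starvation genes PS2 and AT4 had 1.75 and 0.60, with falls in both. ACD6 of immunity had 0.90 and RAB18, a dehydrin, 0.35, again with falls in both. ESM1 of glucosinolate breakdown had -0.41, with the larger fall in the hta9hta11 background.

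The jasmonate genes LOX4 and JAZ9 had 0.79 and 0.52, and the senescence genes BCB and SAG21 had 0.64 and 0.94. TEM1, a flowering repressor, had -0.42 and BHLH38, of iron uptake, -1.34. The nitrogen genes ASN2, NIA2, ASN1 and BT2 had 0.45, 0.17, -1.0 and -0.13.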

How the results depend on the processing

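With DESeq2, 197 genes were called in atchz1ab hta9hta11 against hta9hta11, 92 higher and 105 lower, in place of 330, 150 and 180. With an assumed coefficient of variation of 0.1, 119 were called, 56 higher and 63 lower, and the interaction 276 times, 194 positive and 82 negative. With single libraries left out, calls ran from 219 to 249 (103 to 116 higher, 116 to 134 lower), calls of at least 2-fold from 50 to 55 (28 to 32 higher, 22 to 25 lower), interaction calls from 1159 to 1224 (547 to 580 positive, 600 to 645 negative) and the organelle difference from -0.382 to -0.361 percentage points. Of the 330 calls, 144 (43.6%) were made in all 6 left-out fits. RLE scaling, no filter, a filter at 1 CPM and the compared groups alone gave 327, 328, 315 and 373 calls. The replicate block gave 324 calls, 145 higher and 179 lower. Replicate numbers did not pair the libraries, since same-numbered deviations correlated at 0.003, -0.020 and 0.027. Of 88 called genes named in the report, 70 kept the call with DESeq2, 53 with the assumed coefficient of variation and 69 to 76 with a library left out, and none changed direction in these fits. The cause of these losses was not tested. Depth limits the precision of low genes, since the median standard error of the log2 fold change was 0.54 for genes with a mean under 1 CPM and 0.11 for the others.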
